A study of Arabidopsis thaliana with 30 samples.

Results

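Shoots of the Arabidopsis thaliana mutant ros1-4 were compared with shoots of the wild type Col-0 by ATAC-seq. This assay uses a transposase, Tn5, to insert adapters into open DNA, so that peaks of fragments mark accessible chromatin. The comparison used the 2 ros1-4 shoot peak lists and the 2 Col-0 shoot peak lists of a series of 30. A site was called lost when it carried a peak in neither ros1-4 list and in both Col-0 lists, and gained in the reverse case. Of 42611 sites in the series, 687 were lost and 1350 were gained. The ros1-4 allele is known as a T-DNA insertion that removes ROS1 function, and Col-0 is the accession it is in. Other shoot groups were used as libraries that the calls did not draw on, with 2 libraries each. Of these, by the usual meaning of the names, rdd-2 lacks ROS1, DML2 and DML3, and drdd lacks these and DME. The ros1-4 mutation was also combined with nrpd1-3, gcn5, hda6 and sdg2-4, and each of these 4 mutants was sampled with ROS1 intact, as was met1-9. All shoots were from plants 2 weeks old, grown at 22 °C in long days. Nothing in the labels says whether the 2 libraries of a group came from separate plants, so the tests below measure the spread between libraries, which may be technical.

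ROS1 is a DNA glycosylase that cuts 5-methylcytosine out of DNA, and it counters RNA-directed DNA methylation at the edges of transposons and near genes. DML2, DML3 and DME are its relatives. NRPD1 is the large subunit of RNA polymerase IV, which starts the small RNA pathway that directs this methylation, and MET1 maintains methylation of CG sites. GCN5 acetylates histones, HDA6 removes acetyl groups, and SDG2 methylates lysine 4 of histone H3. Receptor genes of immunity such as RMG1 and RLP43, and the dormancy-related gene DOGL4, are known targets of ROS1.

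The lists held 22745 and 25364 peaks in ros1-4 and 20477 and 21873 in Col-0. Each peak has a fold, the authors' ratio of fragments stacked at its summit to those of the region around it, and all folds below are on this linear scale unless log2 is named. The median fold was 5.36 and 5.69 in ros1-4 and 4.82 and 4.76 in Col-0. Read depth is not given, so it was read back from fold and p as the lowest background of a library, which was 7.12 and 5.24 fragments in ros1-4 and 6.62 and 8.37 in Col-0. The weakest fold that could be called on that lowest background, the detection limit below, was 2.22 and 2.40 in ros1-4 and 2.36 and 2.13 in Col-0. Where the local background was higher, weaker folds were called, down to 1.72 at gained sites and 1.91 at lost sites. Ratios carry no count of molecules, so no counting interval is given. Of 23 photosynthesis genes, all had a site in both libraries of each genotype, while of 13 root marker genes 4 had one in ros1-4, 3 in Col-0 shoot and 11 in Col-0 root. The ROS1 gene itself kept its site (chromosome 2, 15307771 to 15308071), with folds of 10.1 and 10.5 in ros1-4 and 8.56 and 9.92 in Col-0. Since the lists hold no reads over the insertion, they do not check the mutant label.

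The sites lost in ros1-4 were weak, and they lay away from genes more often than other sites. The 687 lost sites made up 3.15% of the 21808 sites that carried a peak in both Col-0 libraries. The lower of the 2 Col-0 folds had a median of 3.27 at lost sites and 4.80 at the other Col-0 sites. The median distance to the nearest protein-coding gene was 466 bp for lost sites and 80 bp for the others. A distance of more than 2000 bp was found for 12.7% of lost sites and 5.50% of the others. Gene-poor windows of 100 kb, with less than 25% of their length in protein-coding genes, held 9.02% of lost sites and 2.16% of the others. The 5 chromosomes lost similar shares, from 2.96% on chromosome 1 to 3.54% on chromosome 2. As a measure of error, 15.3% of sites found in any ros1-4 library and 18.3% of those found in any Col-0 library had a peak in only 1 of the 2. An exact test of 2 libraries against 2 cannot go below p = 0.33, so no site was tested for presence between these 4 lists. With 1 library standing for its group the count of lost sites was 1184 without ros1-4 replicate 1, 1152 without ros1-4 replicate 2, 1475 without Col-0 replicate 1 and 1107 without Col-0 replicate 2.

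Lost sites were of 2 kinds, whole peaks that had gone and edges of peaks that had drawn back. At 525 of the 687 lost sites (76.4%) no ros1-4 peak overlapped the Col-0 peaks over the site. At 134 sites (19.5%) both ros1-4 libraries kept a peak that overlapped the Col-0 peak but stopped short of the site, and 28 sites differed between the ros1-4 libraries. The lower Col-0 fold had a median of 3.17 at whole-peak losses. At edge losses it was 4.16, but there the fold belongs to a summit outside the site at all but 12 of the 134 sites, so it does not measure what was lost. Of whole-peak losses 10.9% lay in gene-poor windows, against 3.73% of edge losses. At the edge losses the ros1-4 peaks had a median width of 318 bp and the Col-0 peaks 621 bp, and ros1-4 ended a median of 139 bp from the site. The ends facing the site lay within 10 bp of each other in the 2 ros1-4 libraries at 45 of 130 edge losses with both ends on 1 side, and the ends of the Col-0 peaks at 32. Over sites kept in all 4 libraries the median peak width was 392 and 329 bp in ros1-4 and 374 and 403 bp in Col-0, so ros1-4 replicate 2 had the narrowest peaks in general, and the part of that in the edge losses was not tested. Among gained sites edges were rare, 38 of 1350 (2.81%).

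Of the 12 lost sites with the highest Col-0 fold among those within 2000 bp of a gene, 10 were edges. Farther from genes, a whole-peak loss reached a lower Col-0 fold of 9.71. The strongest lay 952 bp from STL2P, which encodes a relative of the vesicle-budding factor SEC12 (chromosome 2, 215275 to 215575). No ros1-4 peak reached this site, and the Col-0 peaks over it had folds of 10.5 and 10.8. The ros1-4 peaks beside it were 623 and 599 bp wide with summit folds of 15.7 and 13.0, and the Col-0 peaks were 1012 and 1059 bp wide. Both ros1-4 peaks ended at base 215003. The body of the peak stood in all 4 libraries, and its ros1-4 end lay 271 bp short of the site. Its fold was higher in both ros1-4 libraries than in both Col-0 libraries. The fold of the median site was also 0.33 higher in ros1-4 on the log2 scale, so no gain in height is read from this. The edge was missing in the other 12 libraries without ROS1 too, and it was present in 7 of 8 libraries of the nrpd1-3, gcn5, hda6 and sdg2-4 mutants.

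**Figure D1:**
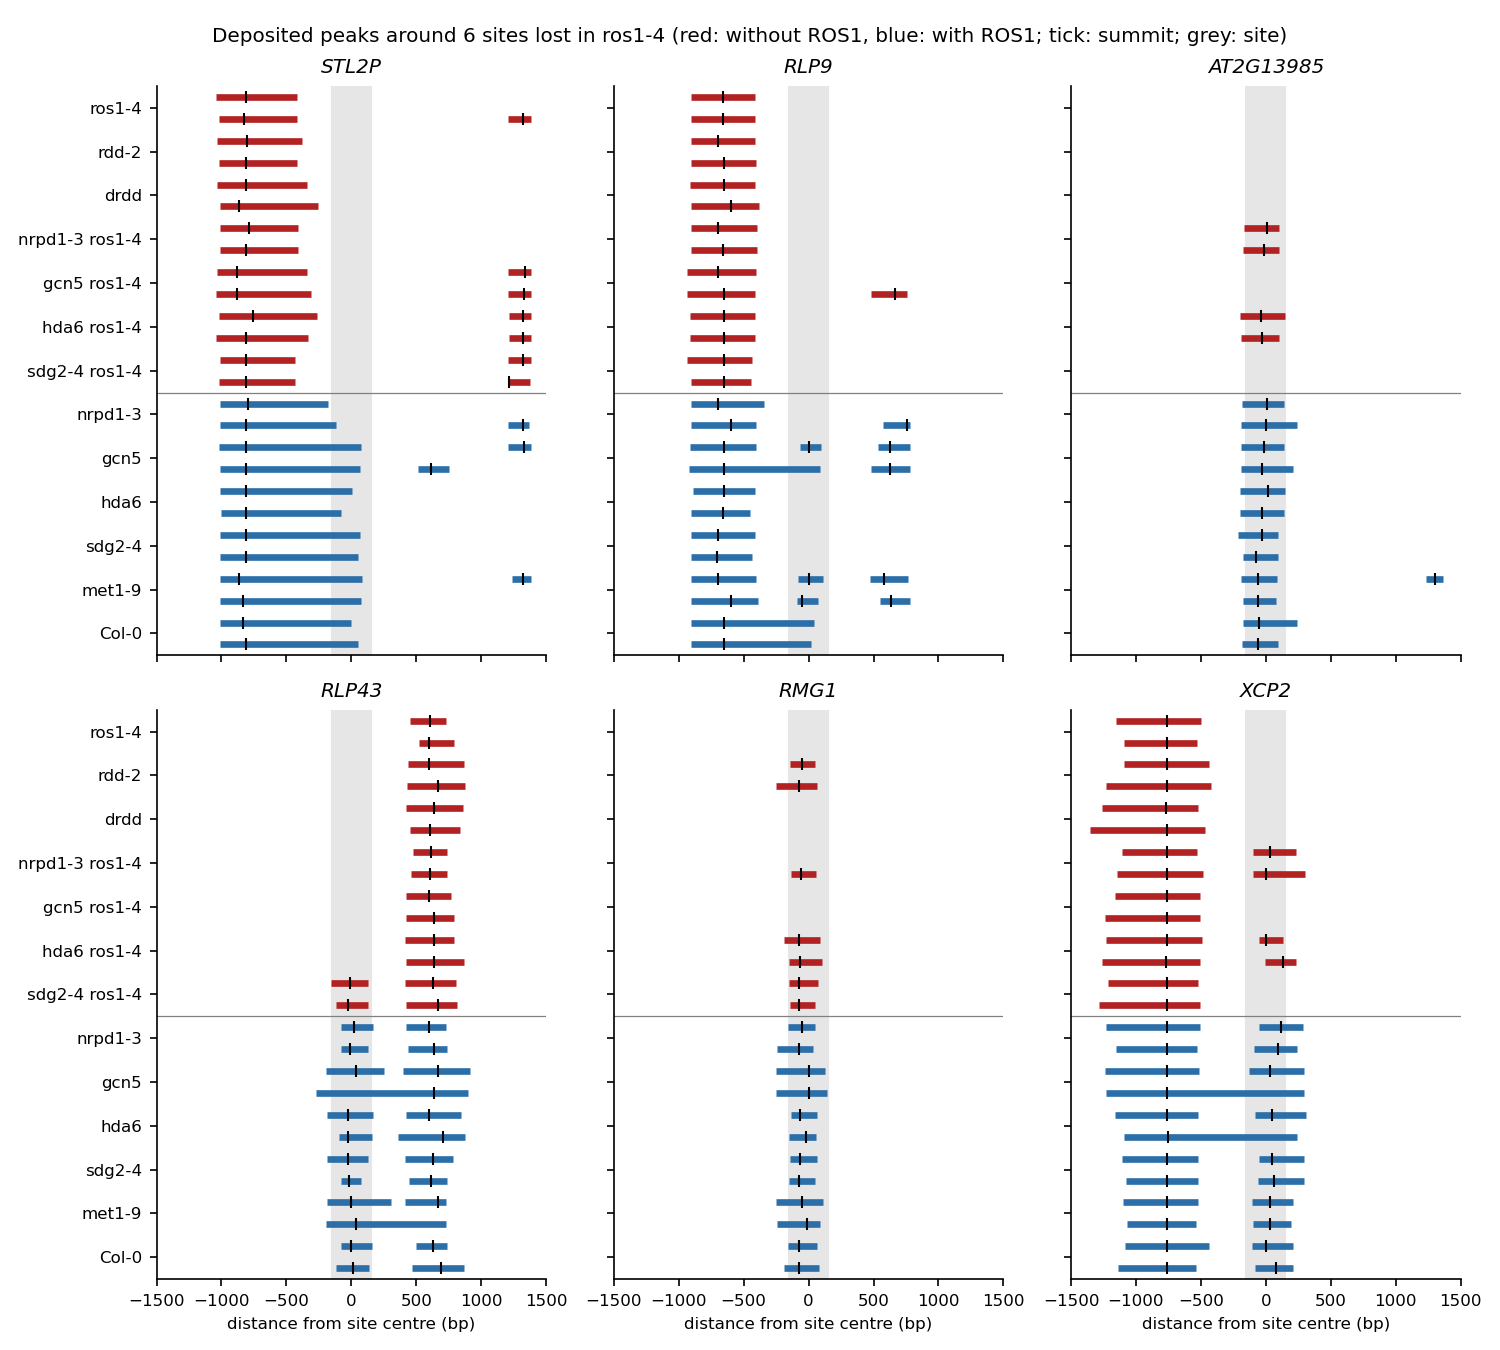
Peaks around 6 lost sites in 26 shoot libraries, with 2 rows for each genotype. The horizontal axis is the distance from the site centre in bp, bars are peaks, ticks are summits and the grey band is the site. At STL2P no red bar (libraries without ROS1) reaches the site, while at RMG1 and XCP2 several red rows carry a peak.

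Other strong edges did not follow ROS1 in this way. The RLP9 edge, at a receptor-like protein gene (chromosome 1, 21540448 to 21540748), was covered in Col-0 at folds of 8.42 and 8.59. It was absent from all 12 other libraries without ROS1, and only 2 of the 8 single-mutant libraries with ROS1 carried it. The edge near PHI-1, a phosphate-induced gene in a gene-poor window (chromosome 1, 12850994 to 12851294), was covered in Col-0 at folds of 9.92 and 10.8, and 4 of 12 libraries without ROS1 and 7 of 8 with it carried it. At AT2G24330, AT5G59930, AT3G25910, AT1G29630, AT1G32730 and AT2G05810 an edge absent from both ros1-4 libraries was present in between 4 and 12 of the 12 other libraries without ROS1. The AT5G59930 edge was present in every library of the series apart from the 2 ros1-4 libraries. At AT5G04020 (chromosome 5, 1087325 to 1087625) ros1-4 kept only weak flanking peaks with folds of 4.26 and 4.70, while the Col-0 peaks had their summit in the site at folds of 8.20 and 8.50. That site carried a peak in 4 of 12 libraries without ROS1, which were the 2 of nrpd1-3 ros1-4 and the 2 of gcn5 ros1-4, and in 8 of 8 with ROS1.

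Among whole-peak losses within 2000 bp of a gene, the strongest lay 1824 bp from AT2G13985 in a gene-poor window (chromosome 2, 5872664 to 5872964). Neither ros1-4 library had a peak there, and Col-0 had folds of 8.16 and 8.76. Both libraries of rdd-2, drdd, gcn5 ros1-4 and sdg2-4 ros1-4 were likewise without a peak, while nrpd1-3 ros1-4 had folds of 11.6 and 10.2 and hda6 ros1-4 had 12.3 and 9.07. All 8 libraries of the single mutants carried it, with folds from 8.77 in gcn5 replicate 2 to 14.6 in nrpd1-3 replicate 2. Near AT3G59435 (chromosome 3, 21969465 to 21969765) ros1-4 had no peak and the Col-0 folds were 9.50 and 7.91, but 10 of 12 other libraries without ROS1 carried one. The whole peak near AT3G15605, an uncharacterised gene (chromosome 3, 5286476 to 5286776), was absent from ros1-4, and the Col-0 folds were 7.50 and 8.02. The summits of the Col-0 peaks lay outside the site. It was also absent from 10 of 12 other libraries without ROS1, and sdg2-4 ros1-4 carried it at 7.95 and 6.53. The 12 strongest whole-peak losses with their own summit within 2000 bp of a gene, singled out after their values were seen, had a peak in all 8 single-mutant libraries with ROS1, apart from AT2G16676. Among them, the site near the sugar transporter gene STP14 had no peak in ros1-4 and Col-0 folds of 7.52 and 7.15, and that near MSRB8, a methionine sulfoxide reductase gene, had none in ros1-4 and 6.61 and 6.23 in Col-0. Both were carried by all 12 other libraries without ROS1, so they were missing in the ros1-4 libraries and nowhere else in the series. The site near CUL4, a cullin gene of ubiquitin ligases, was carried by 9 of those 12 libraries. AT2G16676 had no peak in ros1-4 and Col-0 folds of 7.64 and 6.33, and 1 of 12 libraries without ROS1 and 6 of 8 with it carried the site.

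Of 13 genes chosen because DNA methylation is known to control them, 7 had a site in both Col-0 libraries and 3 of these had a lost site, against 568 of 14076 genes with such a site in the whole genome (4.04%). These genes were chosen with earlier results of these data known, so the count is a description. The genes were RLP43, RMG1 and DOGL4. The RLP43 site, 101 bp from this receptor-like protein gene (chromosome 3, 10898851 to 10899151), had no peak in ros1-4 and folds of 6.98 and 6.23 in Col-0. It was absent from 10 of 12 other libraries without ROS1, present in sdg2-4 ros1-4 at 6.63 and 7.84, and highest in met1-9 at 16.2 and 14.9. The RMG1 site, 75 bp from this nucleotide-binding immune receptor gene (chromosome 4, 6810878 to 6811178), had no peak in ros1-4 and folds of 4.87 and 5.49 in Col-0. Unlike at RLP43, 7 of 12 other libraries without ROS1 carried it, among them hda6 ros1-4 at 10.1 and 7.99 and sdg2-4 ros1-4 at 8.72 and 7.36. The DOGL4 site, 1170 bp from the gene (chromosome 4, 10266459 to 10266759), was covered in Col-0 by peaks with folds of 7.37 and 7.39 whose summit lay outside it. Neither ros1-4 library covered it, and 2 of 12 other libraries without ROS1 did, both of nrpd1-3 ros1-4 at 4.70 and 9.78. Of the 8 single-mutant libraries, 6 carried the DOGL4 site and both gcn5 libraries did not.

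The lists for plant function held between 0 and 2 genes with a lost site each, too few to set their shares against the 4.04% of all genes. Among 15 xylem genes, 6 had a Col-0 site and 1 of these a lost one (16.7%), at XCP2, a cysteine protease of xylem cell death (chromosome 1, 7251537 to 7251837). XCP2 had no peak at this site in ros1-4 and folds of 4.42 and 5.22 in Col-0, and 4 of 12 other libraries without ROS1 and 8 of 8 with ROS1 carried it. Those 4 were nrpd1-3 ros1-4 at 6.42 and 6.45 and hda6 ros1-4 at 2.91 and 2.75. Of 23 photosynthesis genes, all with a Col-0 site, 2 had a lost one (8.70%). At LHCB5, a minor antenna protein gene, the Col-0 folds were 3.16 and 3.23. At LHCB2.2, a light-harvesting protein gene, the lost site was an edge beside ros1-4 peaks of 18.7 and 18.7, and Col-0 covered it at 10.5 and 3.80. Of 15 salicylic acid genes with a Col-0 site 1 had a lost one (6.67%), the marker PR1 (Col-0 folds 3.42 and 2.95). Of 11 flowering genes with a Col-0 site 1 had a lost one (9.09%), SPL3, a regulator of phase change (2.96 and 3.10). PR1, SPL3, LHCB5 and LHCB2.2 sites were present in 3 to 10 of the 12 other libraries without ROS1. None of the 9 stomatal genes and none of the 7 demethylation genes with a Col-0 site had a lost one.

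Gained sites outnumbered lost sites, and they were narrow, weak and close to genes. The 1350 gained sites made up 5.63% of the 23961 sites that carried a peak in both ros1-4 libraries. The lower of the 2 ros1-4 folds had a median of 3.40 at gained sites and 5.51 at other ros1-4 sites. The peaks over gained sites had a median width of 180 bp, against 338 bp over other ros1-4 sites. Gained sites lay in gene bodies in 11.6% of cases and in gene-poor windows in 2.07%, against 7.12% and 2.04% of other ros1-4 sites. The median distance to a gene was 15 bp, against 73 bp. Where both ros1-4 folds had to reach 2 times the detection limit of Col-0, 124 gained sites were left, and 121 lost sites by the matching rule. Lists cut to equal length gave 1246 lost and 700 gained sites, which turns the larger side. With 1 library standing for its group the count of gained sites was 2813 without ros1-4 replicate 1, 2064 without Col-0 replicate 1 and 3088 without Col-0 replicate 2.

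The strongest gained site with its own summit lay 1 bp from AT2G15000 in a gene-poor window (chromosome 2, 6482276 to 6482576), with folds of 9.14 and 11.8 in ros1-4 and no peak in Col-0. It was carried by 11 of 12 other libraries without ROS1 and by 7 of 8 with ROS1. At PUM4, a Pumilio-type RNA-binding protein gene, ros1-4 had folds of 8.04 and 7.29, and 8 of 12 and 2 of 8 of those libraries carried the site. At BPM5, an adaptor gene of CUL3 ubiquitin ligases, the ros1-4 folds were 7.19 and 7.78, and at FSD3, a chloroplast superoxide dismutase gene, 6.46 and 7.78. The gained sites at AT3G21100, AT3G19274 and ATCSLA09, a glucomannan synthase gene, were edges of peaks also present in Col-0. The other sites among the 12 strongest lay at AT2G46890, AT4G38020, AT5G16090, AT4G20150 and AT3G05300, with ros1-4 folds between 6.46 and 7.94. Each of the 12 was carried by at least 2 of the 8 single-mutant libraries with ROS1, so none was open only where ROS1 was lacking.

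Of 28 genes of DNA methylation, 18 had a site in both ros1-4 libraries and 4 of these a gained site (22.2%), against 8.13% of the 15193 genes with a ros1-4 site. They were CMT3, the chromomethylase of CHG sites, DRM2, the methyltransferase of the RNA-directed pathway, SUVH2, which helps bring RNA polymerase V to DNA, and HEN1, which methylates small RNAs. The folds in ros1-4 were 3.99 and 3.68 at CMT3, 4.21 and 3.36 at DRM2, 3.66 and 4.21 at SUVH2, and 5.73 and 5.67 at HEN1. Col-0 had no peak at any of them. Only at HEN1 did both folds reach 2 times the detection limit of Col-0 (4.73). Of the 8 single-mutant libraries with ROS1, 5 carried the CMT3 site, 5 the DRM2 site, 3 the SUVH2 site and 6 the HEN1 site. Gained sites also lay at the wall regulator MYB83 (3.12 and 3.53), the cambium receptor gene PXY (4.01 and 5.61), the stomatal genes ICE1 (5.84 and 5.54) and EPFL9 (2.70 and 3.56), and the photosynthesis genes PSBO1 (2.87 and 2.77) and RBCS2B (2.09 and 2.97). The RBCS2B site was found in 4 of 30 libraries, and its folds lay near the detection limit. Among genes with a ros1-4 site, 2 of 8 xylem genes (25%) and 2 of 9 stomatal genes (22.2%) had a gained one. For photosynthesis genes the share was 2 of 23 (8.70%), and the lists not named in this paragraph had none. The lists were chosen with earlier results of these data known, so these counts are a description.

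Sites that kept a peak in all 4 libraries were compared by summit fold. Of 16013 such sites with a summit in each library, 102 had a lower fold in ros1-4 (0.637%) and 16 a higher one (0.0999%), by limma on log2 fold after centring each library, with Benjamini-Hochberg adjusted p under 0.05. Before centring, the median site was 0.33 higher in ros1-4 on the log2 scale, and changes are relative to that. Without centring 56 sites were lower and 2089 higher. The 102 lower sites had a median log2 change of -0.89, and 10.8% lay in gene-poor windows, against 2.19% of sites tested. Without ros1-4 replicate 1 or replicate 2, 55 or 61 sites were lower, and of the 102 sites 24 were called without each of the 4 libraries in turn.

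**Figure D2:**
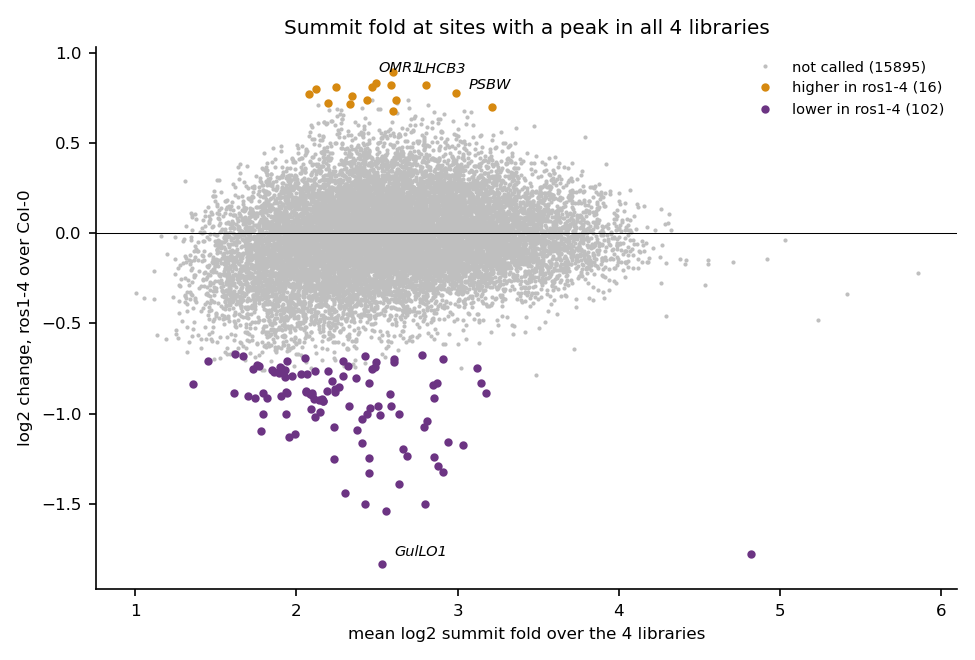
Log2 change of summit fold, ros1-4 over Col-0, against the mean log2 summit fold over the 4 libraries, for 16013 sites. Coloured points passed the adjusted p of 0.05, 102 below 0 and 16 above, and the lower sites reach further from 0.

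The strongest decrease lay 1292 bp from GulLO1, a gene for an L-gulonolactone oxidase, in the family of ascorbate synthesis (chromosome 1, 11649885 to 11650185). Its summit fold was 3.29 and 3.57 in ros1-4 and 8.88 and 10.7 in Col-0. Neither ros1-4 value came near the Col-0 values, and the log2 change was -1.84 (SE 0.155, limma adjusted p = 6.99e-06). A site 4961 bp from ABCC13 (chromosome 2, 3509557 to 3509857) had 16.1 and 18.2 in ros1-4 and 45.4 and 48.0 in Col-0, with a log2 change of -1.78, but it lies in a stretch known to be a near-identical copy of mitochondrial DNA, so its value is uncertain. At AT5G39770 (chromosome 5, 15927815 to 15928115) the summit fold was 3.38 and 3.77 in ros1-4 and 9.03 and 7.22 in Col-0, with a log2 change of -1.50. The other 5 sites with the lowest p, at AT2G15029, AT2G04080, AT5G28620, AT5G07175 and AT3G04480, had log2 changes between -1.54 and -1.33. Of the 8, AT2G15029, AT2G04080, AT5G28620 and the site near ABCC13 lie in gene-poor windows, and none of the list genes had a lower site.

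The 16 higher sites held no gene-poor window and 15 of them lay at gene ends (93.8%). Of all sites tested, 80.0% lay at gene ends and 2.19% in gene-poor windows, so no difference in position is read from 16 sites. LHCB3, a light-harvesting protein gene, had summit folds of 9.14 and 11.8 in ros1-4 and 4.87 and 4.54 in Col-0, a log2 change of 0.82 (SE 0.154, limma adjusted p = 0.0123). PSBW, which encodes a small subunit of photosystem II, had 11.1 and 12.2 in ros1-4 and 4.87 and 6.04 in Col-0, a log2 change of 0.78. OMR1, the threonine deaminase gene of isoleucine synthesis, had 8.29 and 9.64 in ros1-4 and 3.95 and 4.12 in Col-0, a log2 change of 0.82. The sites near ADF5, AT5G16650, AOP3, AT1G65120 and AT3G05775 had log2 changes between 0.77 and 0.90. In all 16 both ros1-4 folds lay above both Col-0 folds before centring, but the sites were chosen on these same values, so this adds no support. Few of the 16 calls stood with 3 libraries. Without ros1-4 replicate 1, 2 sites were higher, both among the 16, and without ros1-4 replicate 2, 4 were higher, 1 of them among the 16. Without Col-0 replicate 1, 28 were higher, 9 of them among the 16, and without Col-0 replicate 2, 52 were higher, 8 of them among the 16. Of 29 tested sites at 23 photosynthesis genes, LHCB3 was the only one called, and their median log2 change was -0.12.

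**Figure D3:**
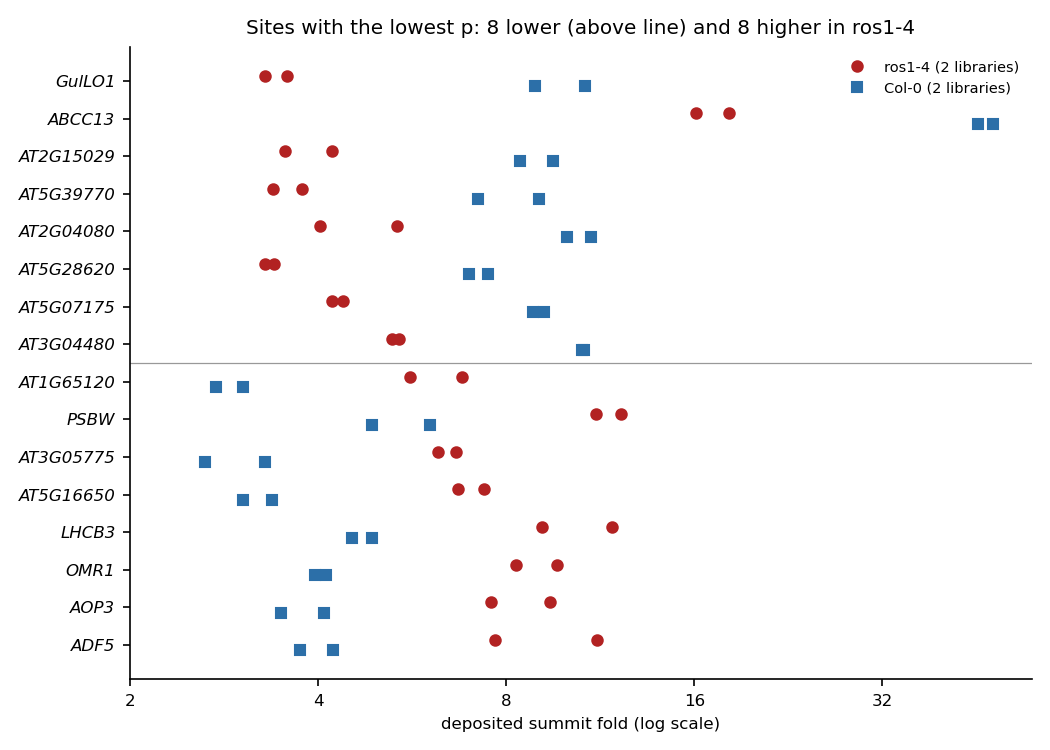
Deposited summit fold, on a log axis, in each library at the 8 lower (top) and the 8 higher sites with the lowest p. Circles are the 2 ros1-4 libraries and squares the 2 Col-0 libraries. At none of the 16 sites, which were chosen on these values, do the genotypes overlap.

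Libraries outside the comparison were then used to see whether lost sites were also closed in other plants without ROS1. Both libraries carried a peak at 41.8% of the 687 lost sites in rdd-2 and at 46.6% in drdd, and at 95.4% and 96.3% of the other Col-0 sites. The shares were 49.5% in nrpd1-3 ros1-4, 69.3% in gcn5 ros1-4, 63.8% in hda6 ros1-4 and 49.8% in sdg2-4 ros1-4. In plants with ROS1 they were 57.2% in nrpd1-3, 91.4% in gcn5, 55.9% in hda6, 54.9% in sdg2-4 and 71.5% in met1-9, so many lost sites were also missing where ROS1 was intact. The 67 lost sites with an own summit and a Col-0 fold of at least 2 times the detection limit separated the genotypes further. Both libraries carried these in 37.3% of cases in drdd, 43.3% in sdg2-4 ros1-4, 56.7% in rdd-2, 73.1% in hda6 ros1-4, 76.1% in gcn5 ros1-4 and 79.1% in nrpd1-3 ros1-4. With ROS1 intact the share was 95.5% in hda6, 97.0% in nrpd1-3 and sdg2-4, and 98.5% in gcn5 and met1-9. The 67 were chosen for strong Col-0 peaks, and no other Col-0 sites of like strength were set beside them. The genotypes also differ in depth, with background floors of 16.3 and 25.1 fragments in gcn5 ros1-4 and up to 32.6 in gcn5 that exceed those of ros1-4 and Col-0 shoots, and the part of depth in these shares was not tested.

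**Figure D4:**
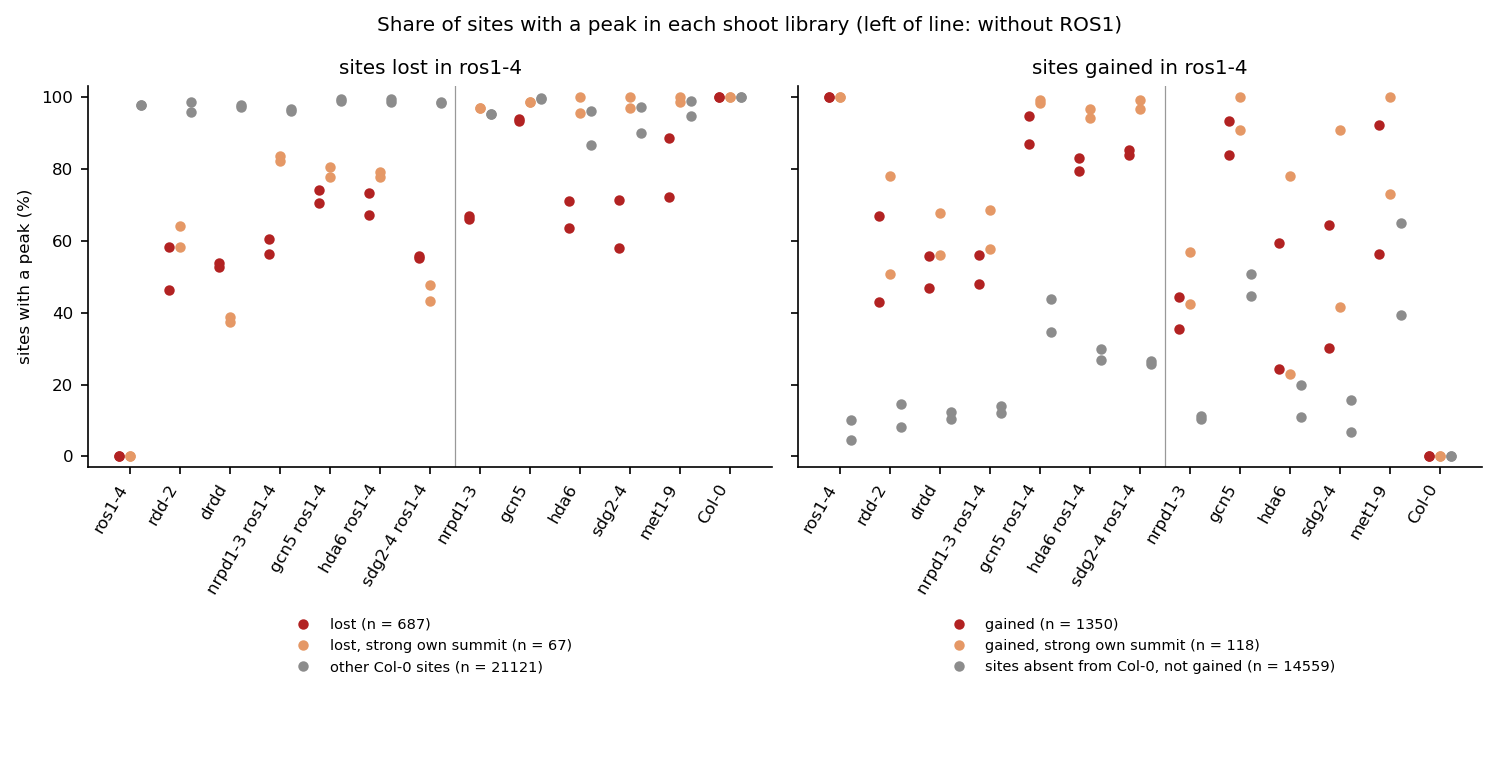
Share of sites with a peak, in percent, in each of the 2 libraries of 13 shoot genotypes, for lost sites (left panel) and gained sites (right panel). Points left of the vertical line are genotypes without ROS1. The 67 strong lost sites lie below the other Col-0 sites, which were not matched for strength, in each genotype without ROS1.

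A test of each site over 20 libraries outside the comparison set the 12 without ROS1 (rdd-2, drdd and the 4 ros1-4 combinations) against the 8 with it (nrpd1-3, gcn5, hda6 and sdg2-4), treating libraries of 1 genotype as separate units. By Fisher's exact test, two-sided, 5 of 21630 sites had fewer peaks without ROS1 at an adjusted p under 0.05 (0.0231%), and 4 of these were lost in ros1-4. They lay near AT4G01350, AT2G34540, AT2G24880 and, 5314 bp away, AT2G13900. Each had a peak in 0 of 12 libraries without ROS1 and 8 of 8 with it, which is the smallest p this test can give, 7.94e-06 (adjusted p = 0.0343). These p-values rest on taking the libraries of 1 genotype as independent, which the labels do not show. No test with genotypes as units was run, and the pairing of each combination with its single mutant was not used. AT4G01350, a gene with no role assigned here (chromosome 4, 559571 to 559871), had no peak in ros1-4, folds of 5.09 and 4.67 in Col-0 and folds from 4.20 to 7.81 in the 8 single-mutant libraries. At the fifth site, at AT2G42005, Col-0 replicate 2 had a peak and Col-0 replicate 1 had none. Without any 1 of 18 of the 20 libraries no site passed. Fewer libraries raise the smallest p that the test can give, so this does not show whether the calls depend on single libraries. Sites still passed without rdd-2 replicate 1 or without nrpd1-3 ros1-4 replicate 1.

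At an unadjusted p under 0.05, 118 of 628 lost sites that vary among these libraries (18.8%) had fewer peaks without ROS1, against 16 of 5023 other Col-0 sites (0.319%). More peaks without ROS1 were found for 67 of 1309 gained sites (5.12%) and for 3.21% of all sites tested. For the other Col-0 sites, which unlike gained sites had a peak in both Col-0 libraries, the share was 5.32%. No site had more peaks at an adjusted p under 0.05 by the same exact test, while 694 did at an unadjusted p under 0.05. Beside the 4 named above, the lost sites with the lowest p included those of STL2P, EXPA17, a cell wall expansin gene, and GSTF14, a glutathione transferase gene, each present in 0 of 12 and 7 of 8 libraries (exact p = 0.000103, adjusted p = 0.14). AT3G15605 and RLP43 were present in 2 of 12 and 8 of 8 (exact p = 0.000714, adjusted p = 0.313). EXPA17 had no peak in ros1-4, and 5.13 and 3.48 in Col-0. Gained sites came no further than 12 of 12 against 3 of 8 libraries, at SAE2, a subunit gene of the SUMO-activating enzyme, AT2G27313 and BRG3 (exact p = 0.00361, adjusted p = 0.516). PTP1, AT1G79630, AT2G23390, PRMT4B and AT4G26040 followed with adjusted p of 0.516 or 0.789 by the same exact test.

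The effect of ros1-4 was measured again, with separate libraries, in 4 other backgrounds. A site counted as lost again when both libraries of the single mutant and neither library of its ros1-4 combination carried a peak. In the sdg2-4 background this held for 139 of 377 sites lost in ros1-4 (36.9%), against 302 of all 22155 sites (1.36%). In the gcn5 background it held for 128 of 628 (20.4%), against 4.94% of all sites, in the nrpd1-3 background for 82 of 393 (20.9%), against 3.09%, and in the hda6 background for 49 of 384 (12.8%), against 1.26%. The 139 sites were 46.0% of all sites lost in sdg2-4 ros1-4, and the 82 were 11.5% of those lost in nrpd1-3 ros1-4. The matching shares were 18.1% in hda6 ros1-4 and 7.84% in gcn5 ros1-4. Of the 67 strong lost sites, 34 of 65 (52.3%) were lost again in the sdg2-4 background and 7 of 65 (10.8%) in the nrpd1-3 background. In the gcn5 background 11 of 66 (16.7%) were lost again, and in the hda6 background 9 of 64 (14.1%). The difference between backgrounds was not tested for presence. Whole-peak and edge losses were lost again at 38.8% and 27.3% in the sdg2-4 background and at 20.9% and 18.3% in the nrpd1-3 background. The shares were 20.8% and 17.7% in the gcn5 background and 12.7% and 9.68% in the hda6 background.

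Gained sites were gained again in 101 of 491 cases in nrpd1-3 ros1-4 (20.6%), 230 of 1001 in hda6 ros1-4 (23.0%) and 209 of 1067 in sdg2-4 ros1-4 (19.6%), where all sites gave 4.28%, 8.47% and 8.02%. In gcn5 ros1-4 they were gained in 15 of 1168 cases (1.28%), against 1.19% of all sites, and both gcn5 libraries already carried 82.1% of the 1350 gained sites. The 118 strong gained sites with their own summit were gained again in 8 of 52 cases in the nrpd1-3 background (15.4%), 17 of 109 in hda6 (15.6%), 8 of 114 in sdg2-4 (7.02%) and 0 of 116 in gcn5. In sdg2-4 that share lay near the 8.02% of all sites. Of the 118 sites, sdg2-4 replicate 1 already carried 90.7% and replicate 2 41.5%, which limits how many could be gained again. Sites absent from Col-0 and not gained were carried by both gcn5 libraries in 41.3% of cases.

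The 102 sites with lower summit fold were followed in the same backgrounds, but only where all 4 libraries of a background had a summit in the site. Sites that lacked a summit in any of these libraries dropped out, among them GulLO1 in the sdg2-4 background. The values below therefore leave out sites whose peak was gone. The median log2 change of the double mutant over the single mutant was -0.23 at 86 of them in the gcn5 background, -0.21 at 82 in the sdg2-4 background, -0.18 at 85 in the hda6 background and -0.05 at 87 in the nrpd1-3 background. By limma in each background, 26 of 86 were lower in gcn5 ros1-4 (30.2%, against 4.41% of all sites tested), 15 of 82 in sdg2-4 ros1-4 (18.3%, against 0.352%), 7 of 85 in hda6 ros1-4 (8.24%, against 0.946%) and 4 of 87 in nrpd1-3 ros1-4 (4.60%, against 0.576%). AT5G39770 was lower in the sdg2-4 (log2 change -1.87, limma adjusted p = 0.0025), nrpd1-3 (-0.84, adjusted p = 0.0312) and gcn5 (-0.49, adjusted p = 0.0343) backgrounds. In the hda6 background AT5G39770 was not called (log2 change -0.22, limma adjusted p = 0.44). GulLO1 was lower in gcn5 ros1-4 (log2 change -1.15, limma adjusted p = 0.000195). Its log2 change was 0.02 in the nrpd1-3 background (limma adjusted p = 0.967) and -0.31 in the hda6 background (adjusted p = 0.311). By a limma test of the difference, the ros1-4 effect was higher in the mutant background than in the wild-type background at 0.24% of sites tested for nrpd1-3, 0.194% for gcn5, 0.175% for hda6 and 0.0709% for sdg2-4. Of the 102 lower sites this held for 24 of 87 in nrpd1-3, 18 of 86 in gcn5, 18 of 85 in hda6 and 10 of 82 in sdg2-4, but these sites were chosen on the wild-type effect and nothing is read from those counts.

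**Figure D5:**
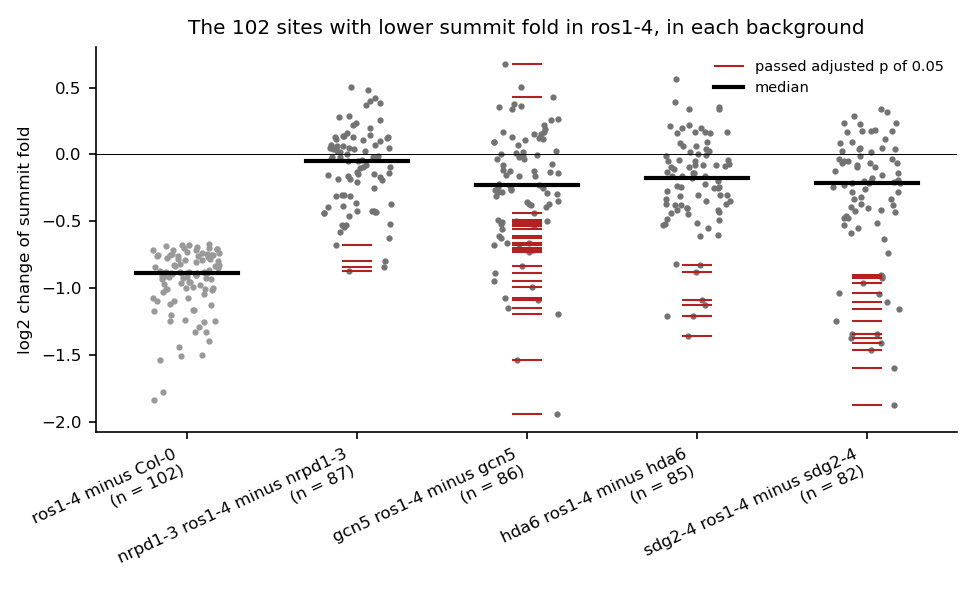
Log2 change of summit fold at the 102 lower sites, for ros1-4 minus Col-0 and for each ros1-4 combination minus its single mutant. In each mutant background only sites with a summit in all 4 libraries are shown. Grey points are sites, black bars medians and red dashes sites past the adjusted p of 0.05, and the medians run from -0.89 for ros1-4 minus Col-0, from which the sites were chosen, to -0.05 in the nrpd1-3 background.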

How the data were processed

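The data were 30 peak lists, 2 for each of 15 combinations of genotype and tissue. Per the submitters' processing notes, reads were handled with FastQC, BWA, SAMtools and GATK on the TAIR10 genome and peaks were called with MACS2. The versions, the settings and the read depths are not given in the sources used here. The authors deposited 1 list per library with each peak's position, its fold ratio of summit pileup to local background, the −log10 of its p-value and q-value, and a score that is the −log10 q times 10, cut to a whole number.

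Sites were non-overlapping windows of 301 bp on peak summits of all lists, and a peak counted with an overlap of at least 1 bp. Genes were taken from the RefSeq annotation of TAIR10.1 by locus tag, and a site was named after its nearest protein-coding gene. Gene ends took in 1000 bp outside and 200 bp inside the gene at each side. Summit folds were tested on the log2 scale with limma 3.58.1 in R 4.3.3 with Benjamini-Hochberg adjustment, and presence over other libraries with Fisher's exact test in scipy 1.17.1. On simulated data with the same spread at every site, limma recovered 198 of 200 changes of 1 on the log2 scale, with 9 false calls among 16013 sites. Fisher's test recovered 183 of 200 with 0 false calls among 42611 sites. There the chance of a peak was set to 0.02 without ROS1 and 0.98 with it at changed sites. These settings are simpler than the data, so the shares do not measure the power of the tests here. The named sites were the 12 strongest lost and gained within 2000 bp of a gene, all list genes with a lost or gained site, ROS1, the 8 sites with the lowest p in each direction of either test, and the sites that passed Fisher's test. Of these, 1 lost site is not reported here. The site at AT2G42005 was named after its values were seen. The members and the gene lists were chosen with earlier results of these data known. The split into whole peaks and edges, the own-summit rule and the fits in the double mutants were added after the data were seen. Alternatives were summit or 150 bp overlap, stricter q and fold, equal list lengths, other normalizations and leaving out each library.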

Additional observations from a re-analysis of the deposited data

Results flagged for a closer look

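The ros1-4 effect on summit fold differed between the wild-type background and each of the 4 mutant backgrounds at some sites, by a limma test of the difference itself with adjusted p under 0.05. The effect in nrpd1-3 was higher than in the wild-type background at 34 sites and lower at 20 of 14174 tested. In gcn5 it was higher at 28 and lower at 5 of 14434, in hda6 higher at 22 and lower at 5 of 12583, and in sdg2-4 higher at 10 and lower at 1 of 14097. At GulLO1 the effect in nrpd1-3 exceeded that in the wild-type background by 1.84 on the log2 scale (limma adjusted p = 0.000953), with folds of 13.8 and 13.6 in nrpd1-3 ros1-4 and 11.9 and 11.9 in nrpd1-3. At AT2G04795 the effect in gcn5 minus that in the wild-type background was -2.09 on the log2 scale (limma adjusted p = 2.73e-05). Sites lower in ros1-4 were chosen on the wild-type effect that enters this difference, so the direction at those sites is not independent.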

How the results depend on the processing

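Lists of equal length gave 1246 lost and 700 gained sites, folds of at least 2 times the detection limit 121 and 124, and sites with their own summit 451 lost. Leaving out 1 library gave 1107 to 1475 lost and 2010 to 3088 gained sites. Sites with lower summit fold numbered 65 with quantile normalization, 56 without centring and 288 with a replicate block, and sites with higher fold 2089 without centring, 40 with limma's trend and 102 with the block. The block was not used because the labels give no pairing of replicate numbers. Replicate differences of the 2 genotypes correlated at -0.0124 over sites, which does not show whether libraries were prepared in pairs. Leaving out 1 library gave 55 to 129 lower and 2 to 52 higher sites. Fewer peaks without ROS1 were called at 12 sites with met1-9 added, at 10 without nrpd1-3 ros1-4, and at 0 with the 4 double against the 4 single mutants (117 at an unadjusted p under 0.05 by Fisher's exact test), with the summit required in the window (348), and without the nrpd1-3 (346), gcn5 (217), hda6 (372) or sdg2-4 (383) background. Leaving out rdd-2 replicate 1 or nrpd1-3 ros1-4 replicate 1 gave 6 sites. Leaving out libraries gave 0 to 10 sites with fewer peaks and 0 with more. Of 28 named lost sites 14 were not called when the summit had to lie in the window, and of 30 named gained sites 4. Of 16 named summit-fold sites 7 and 8 missed the threshold without ros1-4 replicate 1 and replicate 2, all in the same direction as before. Depth limits the weak sites, and the fold that can be called depends on the local background.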
